A study of Mus musculus with 8 samples.

Results

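The olfactory and vomeronasal receptor genes of the mouse were described in a SOX9 CUT&Tag data set from injured and uninjured spinal cord. The set was chosen by gene symbol alone, as protein-coding genes on chromosomes 1 to 19 whose symbol starts with Olfr, Vmn1r or Vmn2r, because these families are silent in the spinal cord. It held 1457 of the 20807 protein-coding genes there (7.00%), made up of 1128 Olfr, 208 Vmn1r and 121 Vmn2r genes. Another 9 genes of these families lie on chromosome X and were not used. Each gene was measured over its body with 1 kb added on either side, called its window here.

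In CUT&Tag, antibodies bring a transposase to a protein on chromatin, and the DNA cut next to it is sequenced. Nuclei were sorted on a DNA stain from frozen cord of adult WT mice. Each piece was 5 mm long. It held the site of a contusion at 1 day post injury (1 dpi), or the matching level of an uninjured cord. For each condition there was 1 male (M) and 1 female (F) sample of 150000 nuclei. The control of each sample used 20% of its nuclei and received the secondary antibody alone. The 8 libraries formed 4 groups of 2, SOX9 antibody or secondary antibody alone, in uninjured cords or at 1 dpi. M and F samples came from different animals. The study's methods give a range of animals pooled per condition, and not the number behind each library. The labels of these samples name no selection by cell type, while the methods of the study also describe sorts with NEUN and SOX10 antibodies. The composition of the nuclei was not given, so fewer nuclei of a type and less signal per nucleus cannot be told apart.

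Olfactory receptors are G protein-coupled receptors that detect odorants in the sensory neurons of the nose, where each mature neuron expresses a single receptor allele. Vmn1r and Vmn2r genes encode the vomeronasal receptors, which detect pheromones and related cues in the vomeronasal organ. Most of these genes stand in large clusters poor in G and C, which are packed in heterochromatin in cells that do not use them. SOX9 is an HMG-box transcription factor of astrocytes and ependymal cells in the adult cord.

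Levels are given as relative coverage, the mean coverage per base of a window divided by the mean over chromosomes 1 to 19 of the same library, so that 1 is the library mean. Values of the 4 SOX9 libraries are always listed in the order uninjured M, uninjured F, 1 dpi M and 1 dpi F. These libraries held 1824332, 7068156, 2463775 and 2317198 fragments on chromosomes 1 to 19. The uninjured F library stood apart, with 3.87 times the fragments of the uninjured M library. The controls were far shallower, at 22300 and 45472 fragments for uninjured M and F and at 51460 and 10664 for M and F at 1 dpi. Genes of the cord's own cells were covered. All 7 measured oligodendrocyte lineage markers lay above the library mean (median 6.77, Sox10 highest at 13.0), as did 6 of 8 astrocyte markers (median 1.83, Gfap highest at 4.50), 5 of 6 neuron markers (median 2.39) and 4 of 5 microglia and macrophage markers (median 2.304). Of the 4 ependymal markers, 2 lay above it (median 1.39, Foxj1 highest at 13.3). Markers of olfactory sensory neurons were covered too (3 of 4 above the mean, median 1.94, Omp highest at 3.89), so that coverage of a gene did not by itself tell these tissues apart.

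The receptor genes were among the least covered genes of the genome in every SOX9 library. Summed over all bases of the 1457 windows, relative coverage was 0.279, 0.140, 0.189 and 0.238. The mean was 0.210 ± 0.0986 (SD, n = 2) in uninjured cords and 0.213 ± 0.0347 (SD, n = 2) at 1 dpi. Over all other coding windows it was 1.44, 1.66, 1.55 and 1.48, which is 5.16, 11.9, 8.20 and 6.23 times the receptor value of the same library. The receptor windows were also below DNA far from genes. In 70468 bins of 10 kb that lay at least 10 kb from any gene, relative coverage was 0.533, 0.348, 0.427 and 0.488, so that the receptors reached 0.524, 0.403, 0.442 and 0.488 of it. The intergenic bins held 39.9% G and C.

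All 3 families were low in sum. Olfr windows lay at 0.294, 0.162, 0.204 and 0.258, Vmn1r windows at 0.258, 0.112, 0.166 and 0.213, and Vmn2r windows at 0.253, 0.0999, 0.164 and 0.200. Olfr had the highest sum in each of the 4 libraries and Vmn2r the lowest, although medians over genes did not keep this order, with 0.125, 0.132 and 0.142 for Olfr, Vmn1r and Vmn2r in the M library at 1 dpi. Windows differed in length, with medians of 7994.5 bp for Olfr, 8796.5 bp for Vmn1r and 29146 bp for Vmn2r.

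Receptor windows made up 0.649% of chromosomes 1 to 19 (15.6 Mb in 1382 merged stretches) and drew a smaller share of the fragments. They held 3480 fragments in the uninjured M library (0.191%, 95% Wilson interval 0.185% to 0.197%) and 6856 in the uninjured F library (0.0970%, 0.0947% to 0.0993%). At 1 dpi they held 3166 (0.129%, 0.124% to 0.133%) and 3781 (0.163%, 0.158% to 0.168%). The intervals cover counting error only, and the 4 shares differed by more than that error. The order of the shares was that of the summed coverage, with the deepest library lowest.

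In the secondary-only controls the receptors were also far below other coding genes. Their summed relative coverage, in the same order of samples, was 0.196, 0.208, 0.168 and 0.141, with a mean of 0.179 ± 0.0299 (SD, n = 4). Other coding windows lay at 1.57, 1.55, 1.502 and 1.60 in the same controls, 8.02, 7.46, 8.92 and 11.3 times the receptor value. The control values rest on 28, 68, 63 and 9 fragments in all receptor windows together, or 0.126% (0.0869% to 0.181%), 0.150% (0.118% to 0.190%), 0.122% (0.0957% to 0.157%) and 0.0844% (0.0444% to 0.160%) of the fragments. These intervals overlap those of at least 2 SOX9 libraries each. The log2 ratio of SOX9 over control was 0.24 for all receptors, 0.08 for Olfr, 0.39 for Vmn1r and 0.84 for Vmn2r. The difference between the SOX9 and control means, 0.212 ± 0.0604 against 0.179 ± 0.0299 (SD, n = 4 each), was smaller than the spread between SOX9 libraries. With libraries scaled to each other by trimmed log ratios of coding windows, the log2 ratio was 0.85, and the scaling factors of the controls then rested on the 4953 to 11070 windows covered in the control. Among the lone fragments of the controls in receptor windows, 113 of 155 (72.9%) matched a SOX9 fragment at both ends, and 0 of 155 did when shifted by 500 bp. Across chromosomes 1 to 19 the share was 82.7% to 93.7% in the 4 controls, so most control fragments are not independent of the SOX9 libraries, and the ratio of SOX9 over control says little about the antibody.

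Gene by gene, the median level over the 4 SOX9 libraries was 0.165 (quartiles 0.0999 and 0.258), against 1.68 for the other 19350 coding genes. Family medians were 0.166 for Olfr, 0.176 for Vmn1r and 0.156 for Vmn2r. The median receptor stood at percentile 5.36 of all coding genes, 658 of the 1000 lowest coding genes were receptors, and 1452 of the 1457 receptors lay below the median of all coding genes (1.54). Other coding genes at or below the receptor median numbered 387 of 19350. A receptor typical of its family was Olfr1212 on chromosome 2 (0.461, 0, 0.0298 and 0.171, 7 fragments). For Vmn1r it was Vmn1r211 on chromosome 13 (0.0849, 0.0932, 0.184 and 0.341, 13 fragments), and for Vmn2r it was Vmn2r86 on chromosome 10 (0.113, 0.183, 0.121 and 0.207, 16 fragments). As these numbers of fragments show, the level of a single receptor gene carries a large counting error. The median receptor had 8 fragments over the 4 SOX9 libraries, against 268 for other coding genes, and 577 receptors (39.6%) had at least 10. Those 577 are not all receptors. They were 399 Olfr, 67 Vmn1r and 111 Vmn2r genes, and the longer windows of Vmn2r genes passed more often.

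Many receptors had no fragment at all. In the order above, 313, 182, 369 and 280 receptors were without coverage, and 21 were without coverage in all 4 SOX9 libraries (18 Olfr and 3 Vmn1r). Thinned to the depth of the uninjured M library, the numbers were 313, 659, 501 and 364, so that the deepest library had the fewest empty receptors as sequenced and the most at an equal number of fragments. Its fragments were also shorter, with a mean of 222.9 bp, against 256.3, 262.1 and 264.3 bp in the others. Among receptors whose window consisted of DNA found once in the genome (at least 90% of sampled 50-base words), those named as lowest were Olfr1079 on chromosome 2, Olfr175-ps1 on chromosome 16, Olfr43 on chromosome 11 and the neighbours Olfr787 and Olfr788 on chromosome 10, all at 0 in the 8 libraries. They belong to the 21 above, which tie at 0 in the SOX9 libraries, so they are not lower than the rest of the 21. The windows of the receptors named were 5.12 to 7.72 kb long.

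A small number of receptors rose above the library mean. Only Olfr90 and Olfr71 had a mean (1.99 and 1.85) above the median of the other coding genes (1.68). Above the library mean, on average over the SOX9 libraries, lay 15 receptors (1.03%), all Olfr, against 70.4% of the other coding genes. Olfr90 was highest (1.79, 2.296, 2.02 and 1.84, 85 fragments). Olfr71 followed (2.111, 1.72, 1.89 and 1.66, 79 fragments), and then Olfr94 (1.49, 1.31, 2.02 and 1.61, 49 fragments). With Olfr279 (2.16, 1.69, 1.26 and 1.23, 121 fragments) and Olfr750 (1.18, 1.17, 1.52 and 1.44, 67 fragments), these were the 5 above the mean in all 4 libraries. The other 10 crossed it in some libraries only. Olfr70, for example, gave 0.859, 1.60, 2.79 and 1.08, and Olfr9 gave 0.895, 1.44, 0.406 and 1.97. Olfr1373, Olfr1411 and Olfr522 also belonged to the 10 highest, with means of 1.32, 1.29 and 1.11. In the window of Olfr1373, 47% of the sampled words were found once, so its level is less certain. The receptors next to the line were Olfr455 at 1.01 inside it and Olfr15 at 0.992 outside it.

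The 15 were richer in G and C than most receptors and closer to other genes. Their median G and C content was 46.2%, against 36.9% for all receptors, and each had a coding gene outside the families within 50 kb, as did 360 of the 1457 receptors. Olfr90, at chr17:37083871-37088499 on the minus strand, opened a cluster of 49 Olfr genes 8.80 kb from Gabbr1, which encodes a subunit of the GABA-B receptor. Olfr94 in the same cluster stood 0.329 kb from Ubd, a ubiquitin-like protein. Olfr70 and Olfr71 were neighbours on chromosome 4, 2.12 and 11.9 kb from Tmem8b. Olfr279 on chromosome 15 stood 9.68 kb from Lalba, the milk protein alpha-lactalbumin. With 16 to 121 fragments each, these genes were measured better than most receptors.

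Base composition accompanied the level across the receptors. Receptor windows had a median G and C content of 36.9%, against 45.8% for other coding windows, and the Spearman correlation of G and C content and level was 0.52 across the 1457 receptors and 0.70 across the 19350 other genes. Genes are not independent replicates here, and they share libraries and depth. Compared within bins of G and C content, receptors were still the lower set. Between 32% and 34% the median was 0.0956 for 172 receptors and 0.134 for 28 other genes, a ratio of 1.40. Between 36% and 38% it was 0.157 for 406 receptors and 0.457 for 644 other genes, a ratio of 2.904. The ratio was 3.38 between 40% and 42% (117 receptors, 2319 other genes) and 2.79 between 46% and 48% (22 receptors, 2281 other genes). In the bins from 36% upward, at most 3.45% of receptors lay above the median of the other genes of their bin, whereas at 32% to 34% the share was 32.6%. Receptors thus stood closest to the other genes where both were poorest in G and C.

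Start sites of receptors were poor in CpG. Around the start, the observed over expected ratio of CpG had a median of 0.107 in receptors and 0.512 in other coding genes. Repeats marked in the reference made up 32.9% of receptor windows and 26.8% of other coding windows. Across receptors the repeat share had no relation to the level (Spearman correlation -0.00, n = 1457).

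Receptor genes have close relatives, and a read that fits several of them may have been placed on any. At least 90% of the sampled 50-base words of the window were found once in the genome for 974 receptors (66.8%), made up of 853 Olfr, 89 Vmn1r and 32 Vmn2r genes. For 93 receptors the share was under 50%. Median levels were 0.158 in the most distinct class, 0.174 between 50% and 90% and 0.220 in the least distinct class. Levels of single genes in the least distinct class are uncertain, and the Spearman correlation between distinct sequence and level was -0.13 across receptors. In the uninjured F library the least distinct class was instead the lowest, with medians of 0.0614, against 0.101 and 0.0933 in the middle and the most distinct class. In other coding genes that correlation was 0.32.

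Receptors less than 1 Mb apart were joined into 66 clusters. Of these, 28 had at least 10 members and together held 1331 receptors, and 15 receptors stood alone. Every one of the 28 clusters was below the library mean in all 4 SOX9 libraries. The lowest was the cluster of 37 Olfr genes from Olfr24 to Olfr18 at chr9:18751507-20336094, with 0.169, 0.0432, 0.112 and 0.120 and a median G and C content of 34.4%. The highest was the cluster of 13 Olfr genes from Olfr62 to Olfr1328 at chr4:118658952-118938612, with 0.669, 0.345, 0.362 and 0.556 and 43.6% G and C. Their means differed 4.36-fold. Across the 28 clusters, level and median G and C content had a Spearman correlation of 0.77.

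The order of the clusters was shared by the libraries, with Spearman correlations of 0.857 to 0.899 between pairs of SOX9 libraries over the 28 clusters. Over single receptors the same correlations were 0.211 to 0.382 (n = 1457). They were 0.702 to 0.819 over the 106 receptors with at least 30 fragments and 0.908 to 0.955 over other coding genes. Receptor levels were therefore reproducible at the scale of a cluster and hardly at the scale of a gene with few fragments. The uninjured F library was the lowest of the SOX9 libraries in all 28 clusters, and the uninjured M library the highest in 24.

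The largest cluster, 227 Olfr genes from Olfr987 to Olfr1274-ps at chr2:85330779-90403897, lay at 0.202, 0.0835, 0.130 and 0.168. The second largest held 129 Olfr genes from Olfr543 to Olfr692 at chr7:102476579-105369355 and lay at 0.311, 0.181, 0.200 and 0.285. Clusters rich in vomeronasal receptors were also low. The 65 Vmn1r genes at chr7:20099680-24063554, where the median share of words found once was 8%, gave 0.276, 0.0865, 0.243 and 0.265. The 14 Vmn1r and 22 Vmn2r genes at chr17:17703747-21314912 gave 0.175, 0.0623, 0.116 and 0.132, and the 10 Vmn2r genes at chr5:108791843-109458459 gave 0.203, 0.0769, 0.140 and 0.172.

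Distance to the nearest coding gene outside the families went with the level over all receptors. The median was 0.294 for the 71 receptors with a coding gene outside the families within 10 kb, 0.194 for 540 receptors at 10 to 100 kb, 0.143 for 740 at 100 to 500 kb and 0.141 for 106 at 500 kb or more. G and C content fell over the same classes, from 40.1% in the nearest to 35.3% in the farthest. Within bins of G and C content the nearer receptors had the higher median in 3 of 5 bins. Among receptors of 36% to 38%, those within 100 kb of another coding gene had a median of 0.168 (n = 172) and those farther away 0.144 (n = 234), and at 34% to 36% the medians were 0.122 (n = 87) and 0.134 (n = 266). At 38% to 40% they were 0.233 and 0.207, at 40% to 42% 0.282 and 0.233, and at 32% to 34% 0.0894 and 0.0958. Distance and base composition were not separated further.

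Receptor start sites were covered about as much as their windows. Within 1 kb on either side of the annotated start, the mean over receptors was 0.270, 0.153, 0.186 and 0.229, against 0.275, 0.142, 0.193 and 0.245 over the whole windows, a ratio of 0.981 over the 4 libraries. The ratio was 0.948 for Olfr, 0.809 for Vmn2r and 1.27 for Vmn1r, or 0.978 for Vmn1r without Vmn1r4. At other coding genes the start reached 4.83, 8.71, 6.65 and 5.57, which is 2.41 times the window. No coverage at the start was found for 319 receptors (21.9%) and 155 other coding genes (0.801%). A mean above 5 was found at 43.7% of the other starts and at 1 receptor start, that of Vmn1r4 on chromosome 6, which lies 0.082 kb from the start of Nt5c3, a nucleotidase gene on the opposite strand.

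The same gene accounted for the few high tiles in the set. In 1-kb tiles, at least 5 times the library mean was reached in all 4 SOX9 libraries by 2 of 16925 receptor tiles (0.0118%), against 1.62% of tiles in other coding windows, 0.804% of all tiles and 0.0926% of tiles at least 10 kb from a gene. Both lay at the adjacent starts of Vmn1r4 and Nt5c3. The tile chr6:56924001-56925000 gave 12.5, 22.7, 16.2 and 13.2, and the tile before it 9.96, 13.8, 7.35 and 6.87. At 3 times the library mean there were 5 receptor tiles. The 3 added ones were chr1:92474001-92475000 next to Olfr1416 and Ndufa10 (6.20, 6.09, 4.90 and 7.44), chr17:37083001-37084000 next to Olfr90 (7.31, 5.78, 5.10 and 3.65) and chr17:37197001-37198000 at Olfr94 and Ubd (5.54, 7.29, 4.99 and 3.46). The tile next to Olfr90 was the only one of the 5 without a coding gene outside the families within 1 kb.

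Upstream sequence was read for every coding gene as the 250 bases before its start in GENCODE on GRCm38. Coverage there was 0.263, 0.184, 0.211 and 0.250 over the 1457 receptors, and 7.78, 17.2, 11.8 and 9.17 over the 19350 other coding genes. It was 0 in all 4 SOX9 libraries for 959 receptors (65.8%) and 1318 other genes (6.81%), and above 5 on average for 1 receptor, Vmn1r4, and 9766 other genes (50.5%). G and C made up 37.8% and 55.8% of these bases. Coverage in the promoters of the RefSeq table was low as well. The table matched 1222 receptors, whose 1227 promoters of 300 bases had a mean of 0.196, against 12.6 for 17947 promoters of other coding genes. The RefSeq start, however, lay over 250 bp inside the GENCODE gene in 905 of 1229 pairings for receptors (73.6%) and 27.1% for other genes, so a RefSeq promoter of a receptor often lies within the gene as GENCODE draws it. Of the 2 RefSeq promoters with a mean above 5, that of Vmn2r29 (6.25, 17.9, 21.1 and 7.58) lay outside the window of the gene and its uninjured F control stood at 118. In the window of Vmn2r29, 21.5% of the sampled words were found once. The other, that of Olfr71 (7.40, 1.88, 5.70 and 5.97), lay inside the gene.

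Motifs were searched in the 250 bases upstream on both strands, as the letters given here. The words ACAAAG and ACAATG, which SOX proteins can bind, were present upstream of 21.7% and 21.3% of receptors, against 15.0% and 8.95% of all coding genes. Either of them stood upstream of 563 receptors (38.6%), against 21.1% of other coding genes and 22.3% of all. The share was highest in Vmn1r genes (48.6%), followed by Vmn2r (38.0%) and Olfr (36.9%). Receptor sequence is rich in A and T, as are these words, and the words share the letters ACAA. Which receptors had the higher coverage, those with or those without a word, changed with the word. It also changed between the upstream sequence and the RefSeq promoters, which differ in start, in length and in the receptors covered. Receptors with either word had 0.212, 0.135, 0.182 and 0.247 upstream, and receptors without had 0.296, 0.215, 0.230 and 0.252. Without Vmn1r4, which has neither word, the values of the latter were 0.264, 0.163, 0.207 and 0.232, so that receptors with a word were lower in 3 of the 4 libraries. For ACAATG alone, also without Vmn1r4, receptors with the word were higher in 3 of the 4 libraries (0.252, 0.110, 0.200 and 0.252, against 0.242, 0.163, 0.196 and 0.234). Their mean was nevertheless slightly lower, at 0.204 against 0.209. For ACAAAG in the RefSeq promoters, the mean was 0.212 with the word and 0.191 without, although the uninjured M library went the other way (0.214 and 0.250). In the same promoters the mean was lower with ACAATG (0.150, against 0.215 without) and with either word (0.176, against 0.215). These differences were not tested. Other coding genes also had lower values with a word (mean 7.71) than without (12.5).

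Words of factors that act on receptor genes in the nose were also counted. TAATGA and TAATTG, homeodomain words that share TAAT, were upstream of 30.95% and 27.7% of receptors, against 8.69% and 7.25% of all coding genes. CCCNNGGG, a palindrome of the type bound by EBF proteins, was upstream of 13.0% of receptors and 14.0% of all coding genes, and of 24.8% of Vmn2r genes. TGACTCA and its reverse complement TGAGTCA, the AP-1 word, were counted as 1 motif and were upstream of 5.97% of receptors and 3.91% of all coding genes, with 23.1% in Vmn2r. TATAAA was upstream of 28.9% of receptors and 11.6% of all coding genes. These shares were different in the RefSeq promoters, which differ from the upstream sequence in start, in length and in the receptors covered. In the RefSeq promoters, CCCNNGGG was present in 4.24% of receptors and 16.3% of all coding genes, either SOX word in 48.4% and 24.7%, and TATAAA in 39.9% and 12.1%. A match describes the letters of the sequence and does not show a bound site.

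Upstream sequences are printed for 4 Olfr genes, with the words above, on either strand, in capitals, as examples with and without signal. No Vmn1r or Vmn2r gene is among them. They are from GRCm38.p6, contain no annotated exon and run 5′ to 3′ on the strand of the gene. Olfr750 (chr14:51074436-51074685, minus strand), among the 10 highest windows, gave 2.77, 1.28, 2.60 and 1.27 here and was the only one of those 10 besides Olfr522 with coverage upstream in all 4 libraries. Olfr90 (chr17:37088500-37088749, minus strand), the highest window, was at 0 in all 4. The same was true of Olfr138 (chr17:38260785-38261034, plus strand), which held both SOX words, and of Olfr787 (chr10:129461612-129461861, plus strand), which had no coverage anywhere in its window.
Olfr750: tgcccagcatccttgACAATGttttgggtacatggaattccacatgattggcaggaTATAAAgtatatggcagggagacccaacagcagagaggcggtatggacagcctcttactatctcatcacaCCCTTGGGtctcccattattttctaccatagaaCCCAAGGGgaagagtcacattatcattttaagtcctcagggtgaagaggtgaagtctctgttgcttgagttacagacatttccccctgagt
Olfr90: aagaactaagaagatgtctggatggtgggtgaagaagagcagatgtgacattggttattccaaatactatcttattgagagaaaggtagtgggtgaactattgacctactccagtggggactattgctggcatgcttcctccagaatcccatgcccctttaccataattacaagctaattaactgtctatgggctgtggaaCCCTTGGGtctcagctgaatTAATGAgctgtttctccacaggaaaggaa
Olfr138: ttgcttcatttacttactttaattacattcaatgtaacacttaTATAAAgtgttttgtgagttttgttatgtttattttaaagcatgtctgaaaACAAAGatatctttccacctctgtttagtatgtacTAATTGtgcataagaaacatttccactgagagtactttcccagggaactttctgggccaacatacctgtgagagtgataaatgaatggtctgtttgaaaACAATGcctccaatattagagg
Olfr787: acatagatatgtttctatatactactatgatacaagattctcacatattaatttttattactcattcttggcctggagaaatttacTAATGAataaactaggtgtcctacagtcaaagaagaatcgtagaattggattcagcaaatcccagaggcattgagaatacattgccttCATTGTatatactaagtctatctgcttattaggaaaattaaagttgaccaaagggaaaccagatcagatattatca

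Coverage within the receptor windows was also searched in stretches of 250 bases outside exons and outside the windows of other coding genes. Start sites were not excluded. A stretch with coverage in all 4 SOX9 libraries existed in 74 of 1450 receptor windows, and in 6 of them it reached 3 times the library mean in all 4. The highest by its lowest library, the only one past 5 times, was chr17:37083331-37083580 just past the 3′ end of Olfr90 (6.05, 9.64, 5.70 and 5.01), with 5 of 5 sampled words found once in the genome and none of the words searched. At chr3:64814294-64814543, in introns of Vmn2r7 and of the overlapping gene Gm26939 (15.5, 4.11, 17.7 and 5.95), the sequence held 62.4% G and C and 0 of 5 sampled words were found once. Both are printed on the plus strand of GRCm38.p6, with the same words in capitals, because they were among the most covered receptor sequences and differ in how unique they are, and they were picked after their values were seen. Others of the 6 lay at Olfr1410 (5.12, 4.33, 5.91 and 4.63, with the uninjured M control at 203), Olfr1373 (4.92, 6.03, 3.75 and 3.87) and Olfr78 (6.99, 3.02, 4.38 and 3.97). The middle of the stretch at Olfr1410 was at -755 bp from the start of the gene, upstream of it. The stretch at Olfr1373 overlapped the gene Gm26551, and 4 of 5 of its sampled words were found once. In the whole window of Olfr1373 the share was 47%.
Olfr90: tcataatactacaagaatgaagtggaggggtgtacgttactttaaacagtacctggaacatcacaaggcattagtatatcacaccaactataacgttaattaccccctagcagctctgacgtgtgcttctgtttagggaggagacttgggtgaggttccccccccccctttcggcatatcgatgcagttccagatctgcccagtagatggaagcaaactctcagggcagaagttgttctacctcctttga
Vmn2r7: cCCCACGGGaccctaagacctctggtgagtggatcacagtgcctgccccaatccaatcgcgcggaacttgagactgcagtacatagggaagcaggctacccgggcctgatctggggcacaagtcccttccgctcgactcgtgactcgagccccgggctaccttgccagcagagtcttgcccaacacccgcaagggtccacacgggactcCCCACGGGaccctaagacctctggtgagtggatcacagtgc

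Fragments in receptor windows had ordinary lengths. Lone fragments there had median lengths of 219, 190, 225 and 227 bp, against 217, 181, 218 and 220 bp in other coding windows. Their G and C content was 41.4% to 41.9%, above that of the receptor windows themselves and below the 43.2% to 45.3% of lone fragments in other coding windows.

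Receptors named for expression outside the nose were above the median receptor but below the library mean. The 6 of this list had a median of 0.350. Their median G and C content was 40.0%, against 36.9% for all receptors. All receptors of 38% to 40% had a median level of 0.216, and those of 40% to 42% had 0.270. Expression outside the nose and base composition were not separated here. Olfr544, a receptor of metabolic tissues, was highest (0.673, 0.858, 0.789 and 1.00, 40 fragments). Olfr558 gave 0.479, 0.543, 0.409 and 0.362, Olfr78 0.395, 0.192, 0.125 and 0.368, and Olfr16, a receptor of sperm, 0.118, 0.0397, 0.213 and 0.492. Olfr2 (1.04, 0.0974, 0 and 0.136) and Olfr1393 (0, 0.179, 0.603 and 0.744) rested on 15 and 13 fragments. Of 7 receptors much used as models, 6 were found in the annotation, with a median of 0.169. They ranged from Olfr73 at 0.00698, with a single fragment, to Olfr1507 at 0.313. Vmn2r1, a member of the Vmn2r family that is widely coexpressed in vomeronasal neurons, gave 0.214, 0.213, 0.301 and 0.484, above the median of its family (0.156).

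Genes that serve receptor signalling or receptor choice were covered like ordinary genes. Of 26 listed genes, 25 were measured, with a median of 1.98, and 20 lay above the library mean. Gng8, a G protein subunit, was highest at 9.09, and Gnai2 (8.36), Ldb1 (6.91), a partner of LHX2 in receptor choice, and Gnao1 (6.77) followed. Lower were the transcription factor genes Lhx2 (0.824) and Emx2 (0.479) and the chloride channel gene Ano2 (0.377). Most receptors and most of the genes that serve them thus stood on opposite sides of the library mean. In limma, 0 of the 25 passed an adjusted p of 0.05 at 1 dpi in either direction, and 0 had an unadjusted p under 0.05.

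Other chemosensory families, and families chosen as silent or nearly so in the cord, were mostly low too, and the receptors lay at the lower end of them. Some Ms4a and Fpr genes are used by microglia and other myeloid cells. Among chemosensory families, medians were 0.130 for Tas2r (bitter taste, n = 35), 0.178 for Fpr (n = 7), 0.257 for Taar (trace amine receptors, n = 15), 0.379 for Ms4a (n = 19) and 4.75 for the 3 Tas1r genes (sweet and umami taste), the exception. Elsewhere they were 0.153 for Prl (n = 26), 0.308 for Defa (n = 22), 0.318 for Defb (n = 42), 0.411 for Krtap (n = 57), 0.427 for Mup (n = 22) and 0.624 for H2-M10 (n = 6). With a median of 0.165, the receptors were near Tas2r and Prl. Median G and C content was 36.0% in Tas2r, 35.0% in Prl and 53.6% in Tas1r, and the low level was thus not particular to olfactory and vomeronasal receptors.

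Injury was compared by setting 1 dpi against uninjured SOX9 libraries. The log2 ratio of summed receptor coverage was 0.03, far within the spread between the 2 libraries of a group. It was 0.02 for Olfr, 0.03 for Vmn1r and 0.05 for Vmn2r. The uninjured values, 0.279 (M) and 0.140 (F), enclosed both values at 1 dpi, 0.189 (M) and 0.238 (F). The sign depended on single libraries, with a log2 ratio of 0.61 without the uninjured M library and -0.39 without the uninjured F library, and of 0.18 and -0.15 without the M and the F library at 1 dpi. In M the receptors were lower at 1 dpi (log2 -0.57) and in F higher (log2 0.77).

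Of the 19166 coding genes with at least 10 fragments, 577 were receptors. In limma, 0 receptors were higher and 0 lower at 1 dpi at an adjusted p under 0.05, and across all genes tested 0% were higher and 0% lower. At an unadjusted p under 0.05, 15 receptors were higher (2.60%, against 1.99% of all genes tested) and 8 lower (1.39%, against 1.58%). Both 1 dpi values lay above both uninjured values in 98 receptors (16.98%, against 12.4% of all genes tested) and below both in 47 (8.15%, against 14.9%). The median log2 change was 0.07 over the 577 receptors and -0.03 over all genes tested. It was 0.37 for receptors without the uninjured M library, -0.27 without the uninjured F library, 0.21 without the M library at 1 dpi and -0.03 without the F library at 1 dpi, so that its sign depends on single libraries. With libraries paired by sex in a replicate block, 1 receptor (Olfr1371) was called higher and 0 lower, of 88 and 50 coding genes, although M and F came from different animals in each condition. Without the M library at 1 dpi, 2 receptors were called higher and 1 lower, of 59 and 55 coding genes, and without the F library at 1 dpi 1 and 1, of 42 and 58. Scaled by the median 10-kb bin instead of the library mean, 4 receptors were called higher and 4 lower, of 54 and 47 coding genes, and the median log2 change over all genes tested was -0.10. The higher ones were Olfr1393, Olfr1371, Olfr1155 and Olfr1302, the lower ones Olfr1367, Olfr159, Olfr651 and Olfr707, with 10 to 20 fragments each.

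Named receptors show the size of these changes. Among the 106 receptors with at least 30 fragments, the largest difference upward without overlap was that of Olfr138 (0.318 and 0.210 in uninjured cords, 0.784 and 0.786 at 1 dpi, log2 change 1.30, SE 0.34). Olfr275 gave 0.538 and 0.174 against 0.719 and 0.959 (1.16, SE 0.44). Vmn2r91 gave 0.0858 and 0.0466 against 0.278 and 0.152 (0.90, SE 0.83). Olfr138 held 5, 13, 13 and 12 fragments, so these values carry a large counting error. Olfr709-ps1 gave 0.388 and 0.460 against 0.732 and 0.991 (0.87, SE 0.29), and Olfr95 gave 0.373 and 0.637 against 0.840 and 1.07 (0.83, SE 0.32). All 5 had an adjusted p of 1.00 in limma and so were not called. The value of Olfr275 was 1.77 without the uninjured M library and 0.55 without the uninjured F library, and that of Olfr95 was 0.51 without the uninjured M library. The share of sampled words found once was 68.5% for Olfr138, 98% for Olfr275, 66% for Vmn2r91, 81% for Olfr709-ps1 and 98.5% for Olfr95.

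In the other direction, Vmn2r81 gave 0.461 and 0.166 in uninjured cords against 0.0829 and 0.0390 at 1 dpi (log2 change -1.28, SE 0.78). Olfr1564 gave 0.630 and 0.693 against 0.182 and 0.333 (-1.12, SE 0.38), and Olfr986 gave 0.817 and 0.432 against 0.340 and 0.230 (-0.87, SE 0.41). These, too, had an adjusted p of 1.00 in limma. Olfr1414 gave 1.01 and 0.767 against 0.627 and 0.346 (-0.78, SE 0.33), and Vmn1r88 gave 0.206 and 0.210 against 0.0128 and 0.201 (-0.74, SE 0.85). The value of Vmn1r88 rested on the M library at 1 dpi, being -0.03 without it and -1.45 without the F library at 1 dpi. Without the uninjured M library, Vmn2r81 was at -0.74 and Olfr986 at -0.48, and without the F library at 1 dpi Olfr1414 was at -0.43. Sampled words found once made up 75% for Vmn2r81, 92% for Olfr1564, 90% for Olfr986, 97% for Olfr1414 and 80.5% for Vmn1r88. The fold changes are on the log2 scale after adding 0.1, which understates the changes of such low genes. Of the receptors known outside the nose, all 6 were tested and 0 passed at an adjusted p of 0.05 in limma, with 1 higher and 0 lower at an unadjusted p under 0.05. That 1 was Olfr1393 (log2 change 2.21, SE 0.62), which was among the receptors called when scaled by the median 10-kb bin. Of the model receptors, 3 were tested, with 0 past either threshold.

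SOX9 against control, gene by gene, rested on empty control windows and on genes kept for fragments in the SOX9 libraries alone. The filter thus favoured genes covered with the SOX9 antibody, so the direction of the calls cannot be read as enrichment. In limma over all 8 libraries, 410 of 577 receptors (71.1%) were higher with the SOX9 antibody at an adjusted p under 0.05, against 25.7% of all genes tested, and 0 were lower, against 0.073%. At an unadjusted p under 0.05, 469 were higher (81.3%, against 35.8% of all genes tested) and 0 lower (against 0.308%). With 1 control left out, receptors called lower numbered 4 of 47 coding genes (without uninjured M), 5 of 74 (uninjured F), 1 of 342 (1 dpi M) and 4 of 129 (1 dpi F). Of the 410, however, 409 had no fragment in any control, and 402 lay below the library mean in the SOX9 libraries. Empty controls were not particular to receptors, since 4085 of the 4935 coding genes called higher had no coverage in any control. Over all receptors, 1314 of 1457 had no control fragment. A single fragment in a window of median length stood for 12.9, 6.31, 5.58 and 26.9 times the library mean in the 4 controls. These calls therefore compare covered SOX9 windows with control windows too shallow to hold a fragment.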

How the data were processed

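The deposited values are the coverage of fragments in whole numbers, listed per library and not scaled for depth. According to the authors, reads were mapped to mm10 with Bowtie2 2.5.4 and duplicates removed with Picard 3.4.0. A filter on mapping quality and the step that wrote the coverage were not stated. Fragments were counted here as rises of coverage, which misses a fragment that starts where another ends, so that fragment numbers are lower bounds and mean fragment lengths upper bounds. Genes were taken from GENCODE M21 on GRCm38 and sequences from GRCm38.p6.

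Levels were compared as log2 of relative coverage plus 0.1 with limma 3.58.1 (trend) in R 4.3.3, with p adjusted by the Benjamini-Hochberg method over all 19166 coding genes that had at least 10 fragments in the SOX9 libraries. Other values were computed with Python 3.11.15, numpy 2.4.6, scipy 1.17.1, pandas 2.3.3 and numba 0.67.0. Uniqueness was sampled at 200 positions per window. Intervals are Wilson intervals at 95% and cover counting error only. Receptors were named when past the threshold, among the 10 highest or 5 lowest, nearest a family median, among the 5 largest changes in each direction without overlap, or on a list. Receptors named for a call under another scaling, a high tile, a high stretch, a high promoter or the borders of a cluster, those next to the library mean, and the printed sequences were chosen after their values were seen, as was the use of GENCODE starts for upstream sequence. The members and lists were chosen with earlier results of these data known.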

Additional observations from a re-analysis of the deposited data

Results flagged for a closer look

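The receptors differed in direction between M and F. Summed receptor coverage at 1 dpi over uninjured was -0.57 in M and 0.77 in F on the log2 scale, with 1 library per sex and condition. All 3 families shared these directions, with -0.53 and 0.67 for Olfr, -0.64 and 0.92 for Vmn1r and -0.62 and 1.00 for Vmn2r. Of the 577 receptors with at least 10 fragments, 374 were lower at 1 dpi in M (64.8%, against 40.8% of all genes tested), 434 were higher in F (75.2%, against 37.8%) and 291 were both (50.4%, against 20.0%). DNA far from genes had the same directions (-0.32 and 0.49), and other coding genes the opposite ones at a smaller size (0.10 and -0.16). The difference between M and F was not tested, and sex, animal and library cannot be told apart. The uninjured F library, the deepest, enters the F ratio.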

How the results depend on the processing

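The sign of the log2 ratio of receptor coverage at 1 dpi over uninjured depended on single libraries. It was -0.39 to 0.61 with 1 library left out, and negative in 2 of 12 alternatives, without the F library of either condition. It was 0.00 scaled by the median 10-kb bin and 0.03 scaled by the trimmed mean of log ratios. The log2 ratio of SOX9 over control was 0.08 to 0.40 with 1 library left out and 0.85 scaled by the trimmed mean, with a mean of 0.119 in the controls. The log2 changes of the 10 receptors named for their size kept their sign and stayed uncalled in all 150 values under an alternative, and 28 of these differed over 1.5 times from the value in the text.

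As the median over receptors, the level at 1 dpi was 0.154. Thinned to the shallowest SOX9 library, the uninjured F library had 659 receptors without coverage. Receptor tiles numbered 5 at 3 times and 1 at 10 times the library mean.

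At 1 dpi, scaling by the median 10-kb bin called 4 receptors higher and 4 lower, and 54 and 47 coding genes. A replicate block that paired libraries by sex called 1 receptor higher (Olfr1371) and 0 lower, and 88 and 50 coding genes. A block with the crossed pairing, chosen after seeing the data, called 0 of either, with 455 coding genes higher and 464 lower at an unadjusted p under 0.05 in limma. With 1 library left out, 0 to 2 receptors were higher and 0 to 1 lower, and 0 to 59 and 0 to 58 coding genes. The lone library of a group was then assumed to vary like the other group.

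For SOX9 against control, 270 receptors were higher with 1 added before the log (46.8%, against 22.1% of all genes tested), and 66 of 106 with at least 30 fragments (62.3%, against 20.3%), where fewer were tested. In both cases receptors were kept for fragments in the SOX9 libraries alone, so neither count is a check of the direction. Coding genes lower numbered 9 with 0.5 added, 7 with 1 added, 9 with at least 30 fragments and 3 with a block by nuclei sample. The fragment minimum and this block were chosen after seeing the data. With 1 library left out, 305 to 403 receptors were higher and 0 to 5 lower, and 4120 to 8697 coding genes higher and 0 to 342 lower, the highest of these coding counts without the M control at 1 dpi. Apart from the fewer genes tested at 30 fragments, the cause was not tested.

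The controls could not be scaled by the median bin, since it is 0 in them, and their median over receptors is also 0, so that these alternatives gave no ratio of SOX9 over control. The depth of the controls limits SOX9 against control, and the few fragments of a receptor limit the values of single receptors. Reads shared by near-identical receptors, and the composition of the nuclei, were not separated.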
